A study of Mus musculus with 12 samples.

Results

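Ion channel genes of the voltage-gated families and their relatives were measured in newborn mouse brain. They were chosen by symbol alone: every probe was taken whose annotated gene begins with Kcn (potassium channels), with Scn followed by a number and a or b (sodium channels), with Cacna, Cacnb, Cacng or Cacna2d (calcium channels) or with Hcn. This rule gave 126 of 22491 named genes, carried by 243 of the 45281 probes of the array, and all 243 probes were kept, with no filter on low values. Only 35784 of the probes carry a symbol in this annotation, and a channel gene's probe without one was not taken in. Of these probes, 230 were annotated to a RefSeq transcript and 13 to a GenBank cDNA, and 69 of the genes had more than 1 probe.

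Whole brains were taken at postnatal day 1, and 12 single-colour Illumina MouseWG-6 arrays were run in 4 groups of 3: WT 129 and nm1054 129, whose background strain was 129S6/SvEvTac, and WT B6 and nm1054 B6, whose background was C57BL6/J. The nm1054 mice were homozygous for a spontaneous deletion on chromosome 1 that removes several neighbouring genes, among them Cfap221, Dbi (also called Acbp) and Steap3. The nm1054 B6 mice, unlike the other groups, also carried a bacterial artificial chromosome transgene with Steap3, so that every comparison with this group includes the transgene. Per the paper's methods each group held male and female mice, and no gross hydrocephalus was seen at this age. The labels do not give the sex of each brain. The study set the strains against each other because hydrocephalus in nm1054 mice is more severe on B6 than on 129.

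Voltage-gated channels open when the membrane depolarises or, in the Hcn family, when it hyperpolarises. Sodium channels carry the rising phase of the action potential, Kv potassium channels repolarise the membrane, and calcium channels couple depolarisation to transmitter release and to gene expression. The Kcn prefix also takes in the inward rectifiers, the two-pore leak channels and auxiliary subunits. A further class under it holds channels opened by intracellular calcium or sodium and their relatives. In the newborn brain many of these genes are still below their adult level.

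The values were log2 intensities set against the middle of the probe over the 12 arrays, with each probe's median at 0. A value of 0 is therefore the middle array of that probe, and the values carry no information on how strongly a channel was expressed or whether it was detected. Differences are given as 129 minus B6 or as nm1054 minus WT, on the log2 scale, with the standard error (SE) of the limma fit over all 12 arrays. A probe was called where the Benjamini-Hochberg adjusted p over all 45281 probes was under 0.05 and the fold was over 1.5. For the same reason the brain label could not be checked by the level of brain markers. In whole brain, fewer cells of a type and less RNA per cell cannot be told apart. A strain difference is one of a probe's intensity, and whether each probe binds RNA of both strains alike was not tested.

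Probes of 8 of the 126 genes were called between the strains in WT or in nm1054 brains: Kcnj6, Kcnj9, Kcnq5, Kcnn1, Cacna1a, Cacnb4, Scn9a and Hcn3. For 6 of these 8 genes the RefSeq promoter table (build GRCm38.p6) held 11 start sites. The 100 bases before the start, which is the end of each printed stretch, are shown for Kcnj6, Kcnj9, Kcnq5, Kcnn1 and Scn9a, which have the largest called differences among these 6, 5′ to 3′ on the minus strand that all of them lie on, with CG dinucleotides in capitals, because the starts of Kcnj6 differ most in that feature. The table does not say which transcript uses which start.
Kcnj6 first start: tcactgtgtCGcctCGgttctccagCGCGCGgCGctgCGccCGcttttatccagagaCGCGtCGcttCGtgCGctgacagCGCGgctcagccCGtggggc
Kcnj6 second start: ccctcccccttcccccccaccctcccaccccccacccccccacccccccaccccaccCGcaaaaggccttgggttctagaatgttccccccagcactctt
Kcnj9: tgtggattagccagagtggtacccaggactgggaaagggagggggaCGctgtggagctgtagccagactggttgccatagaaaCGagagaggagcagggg
Kcnq5 first start: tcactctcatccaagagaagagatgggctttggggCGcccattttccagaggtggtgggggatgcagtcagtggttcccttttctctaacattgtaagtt
Kcnq5 second start: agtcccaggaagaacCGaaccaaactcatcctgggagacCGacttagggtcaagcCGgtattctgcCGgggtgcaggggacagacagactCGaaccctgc
Kcnn1 first start: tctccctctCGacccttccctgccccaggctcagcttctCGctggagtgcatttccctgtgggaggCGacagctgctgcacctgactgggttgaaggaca
Kcnn1 second start: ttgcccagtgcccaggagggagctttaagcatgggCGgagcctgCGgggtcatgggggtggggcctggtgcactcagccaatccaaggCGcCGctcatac
Scn9a: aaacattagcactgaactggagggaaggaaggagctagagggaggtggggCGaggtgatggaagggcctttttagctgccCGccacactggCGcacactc
The Kcnj6 stretches lie at chr16:94997697-94997796 and chr16:94856691-94856790, and hold 16 CG dinucleotides and 1. The Kcnj9 stretch lies at chr1:172329323-172329422 and holds 2. Those of Kcnq5 lie at chr1:21962651-21962750 and chr1:21961943-21962042, with 1 and 5, and those of Kcnn1 at chr8:70863259-70863358 and chr8:70857009-70857108, with 3 and 4. The Scn9a stretch lies at chr2:66634963-66635062 and holds 3. Over all 32851 stretches of this length in the table the median was 3, with 10 or more in 18.6% of them and 2 or fewer in 48.8%. The GC box GGGCGG, searched on both strands, was found in the second Kcnn1 stretch and in none of the other 7 shown, against 24.7% of all stretches. The TATA motif TATAAA, searched likewise, was found in none of the 8 against 5.56%.

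Between the strains the channel genes moved about as often as the array as a whole. In WT brains 8 of the 243 channel probes (3.29%) were called, against 3.33% of all probes. Of these 8, 4 were higher in 129 (1.65%, against 1.67% of all probes) and 4 lower (1.65%, against 1.66%). In nm1054 brains 6 channel probes were called (2.47%, against 3.27%), of which 2 were higher in 129 (0.823%, against 1.39%) and 4 lower (1.65%, against 1.88%). These shares are near or below the background and say nothing particular about channel genes. Under the methods' t-test, which fits each probe on its own, 0 channel probes were called in WT, against 1.2% of all probes, and 3 in nm1054, against 1.58%.

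The 3 brains of one strain did not overlap with the 3 of the other for 76 channel probes in WT (31.3%, against 29.4% of all probes) and for 62 in nm1054 (25.5%, against 29.3%). The median channel probe was higher in 129 by 0.15 in WT and by 0.10 in nm1054, and the median over all probes was 0.15 and 0.12. This shift was shared with the whole array, and after median centring of every array the all-probe medians were 0.02. Neuron markers, a list of 15 probes, lay in the same direction, with medians of 0.24 in WT and 0.18 in nm1054 and 0 probes called. Heart and skeletal muscle markers, which are not brain genes, had medians of 0.15 and 0.21, and red blood cell markers 0.32 and 0.71. Medians were 0.03 and -0.19 for astrocytes and radial glia, and 0.00 and 0.00 for the oligodendrocyte lineage. They were 0.03 and -0.03 for microglia, -0.03 and 0.16 for endothelium and pericytes, and -0.18 and -0.14 for choroid plexus. The part of the neuron markers in the channel differences was not tested.

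**Figure D1:**
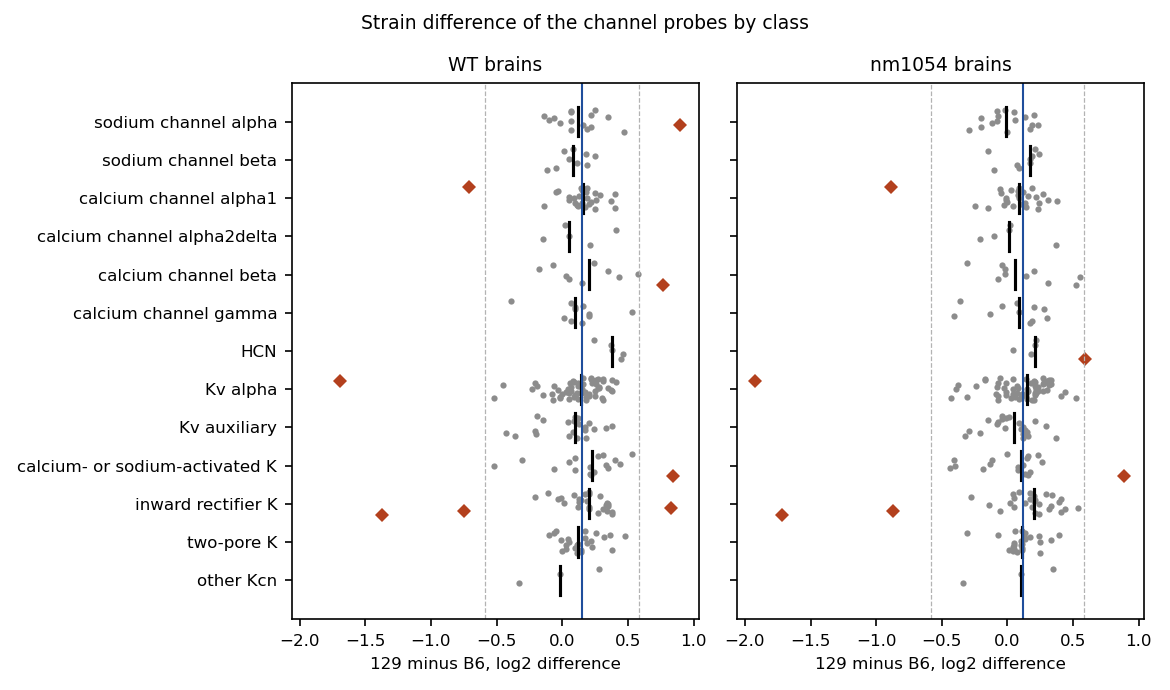
The 129 minus B6 difference (x axis, log2) of each of the 243 channel probes by channel class (y axis), in WT brains at left and nm1054 brains at right. Diamonds are called probes, black bars class medians, the blue line the median of all 45281 probes (0.15 and 0.12) and dashed lines a fold of 1.5. Class medians lie between -0.02 and 0.38 in WT and between -0.01 and 0.21 in nm1054, and the called probes stand apart as single points, from -1.69 to 0.90 in WT and from -1.92 to 0.89 in nm1054.

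The probes with the largest strain differences, those of Kcnj6 and Kcnq5, were called in both genotypes. In all, 5 channel probes were called in both strain comparisons (2.06%, against 2.37% of all probes). They came from the 4 genes Kcnj6, Kcnq5, Cacna1a and Kcnn1, each in the same direction in both. WT and nm1054 brains were different animals, and these comparisons share no array. Probes of Kcnj9, Cacnb4 and Scn9a were called in WT only and a probe of Hcn3 in nm1054 only, and for none of these 4 was the difference between the genotypes called.

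**Figure D2:**
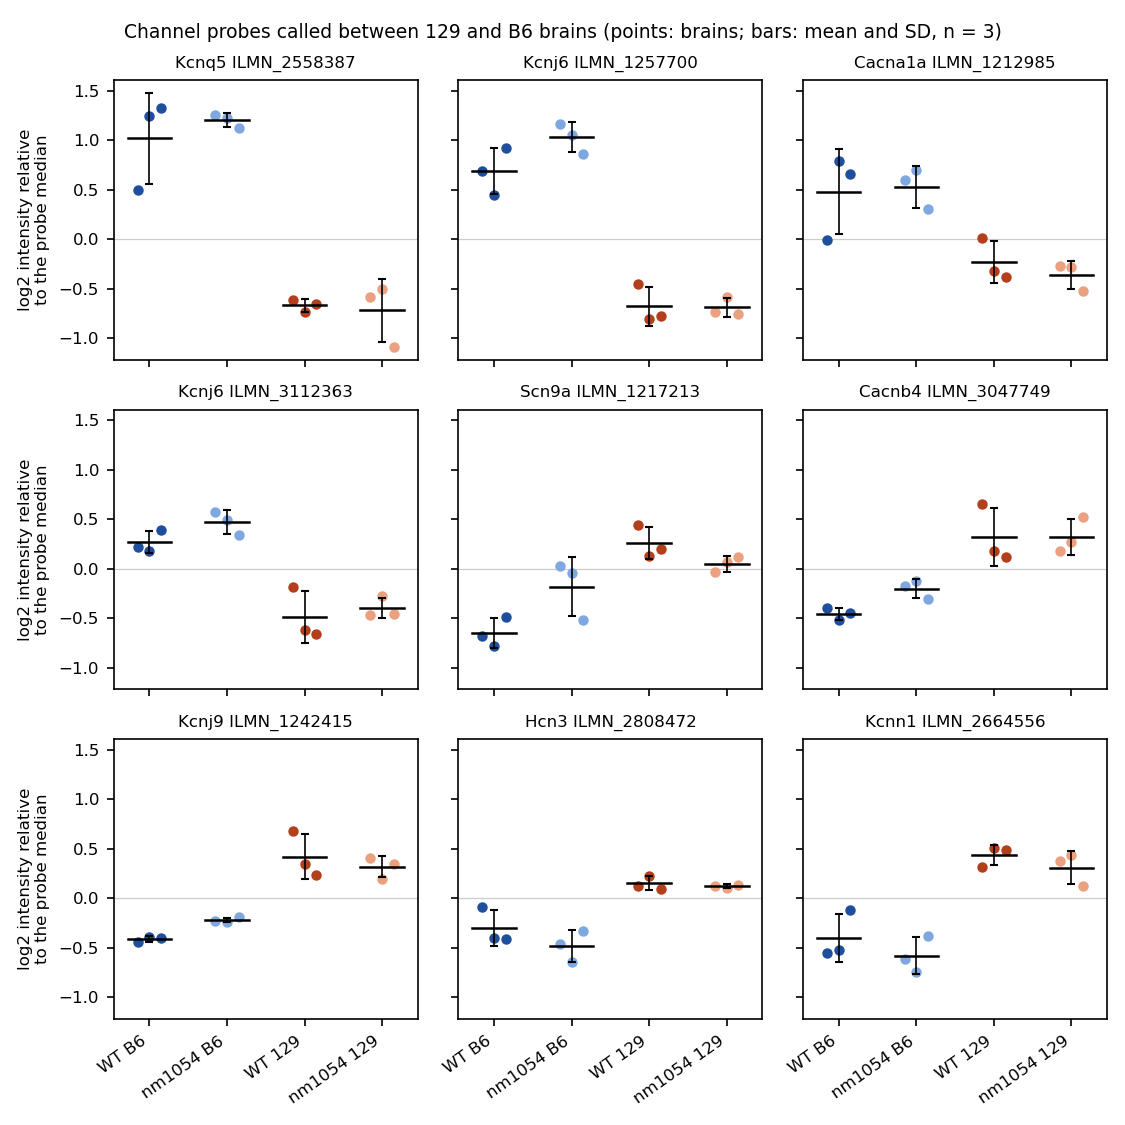
Values of the 9 channel probes called between the strains (y axis, log2 intensity relative to the probe median) in the 4 groups (x axis). Points are single brains, bars the group mean and SD (n = 3). B6 brains are high for both Kcnj6 probes, Kcnq5 and Cacna1a, and 129 brains for the other 5.

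Of the 29 inward rectifier potassium channel probes, from 14 genes, 3 were called in WT and 2 in nm1054. Over all probes 3.33% and 3.27% were called. Both calls in nm1054 and 2 of the 3 in WT were probes of Kcnj6, and the other was of Kcnj9. Both genes encode G protein-gated channels. G protein-gated channels (GIRK) open when GABA-B, muscarinic, dopamine D2 and opioid receptors release the beta-gamma subunits of their G protein, and thereby slow neuronal firing. Kcnj6 encodes GIRK2, the subunit mutated in the weaver mouse, and Kcnj9 encodes GIRK3. Kcnj6 was lower in 129 by 2.58-fold in WT and 3.29-fold in nm1054, and Kcnj9 higher by 1.78-fold in WT, each at its most different probe.

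At Kcnj6 probe ILMN_1257700 the values were -0.45, -0.81 and -0.78 in WT 129, -0.74, -0.58 and -0.76 in nm1054 129, 0.69, 0.45 and 0.92 in WT B6 and 1.16, 1.05 and 0.86 in nm1054 B6. Every B6 brain was above every 129 brain by more than the spread within any group. The difference was -1.37 ± 0.14 (SE) in WT (adjusted p = 7.7e-07) and -1.72 ± 0.14 in nm1054 (adjusted p = 2.8e-08). At ILMN_3112363 the values were -0.18, -0.62 and -0.66 in WT 129, -0.47, -0.28 and -0.46 in nm1054 129, 0.22, 0.18 and 0.39 in WT B6 and 0.57, 0.49 and 0.34 in nm1054 B6. The strains again did not overlap, with a smaller difference of -0.75 ± 0.13 in WT (adjusted p = 8.4e-04) and -0.87 ± 0.13 in nm1054 (adjusted p = 1.7e-04).

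The 6 Kcnj6 probes split by the transcript they were annotated to, a pattern noticed after the values were seen and given as a description. Both called probes and a further one, ILMN_3038066, were annotated to 1 transcript, the variant Girk2B, and all 3 lay below 0: the uncalled one differed by -0.21 ± 0.12 in WT and -0.28 ± 0.12 in nm1054, neither called. The other 3 probes, each annotated to a different transcript of the gene, lay above 0. ILMN_1256457 differed by 0.19 in WT and 0.20 in nm1054, ILMN_2720186 by 0.35 and 0.33, and ILMN_3162725 by 0.34 and 0.02, none called. The splice forms of GIRK2 differ at the ends of the protein.

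**Figure D3:**
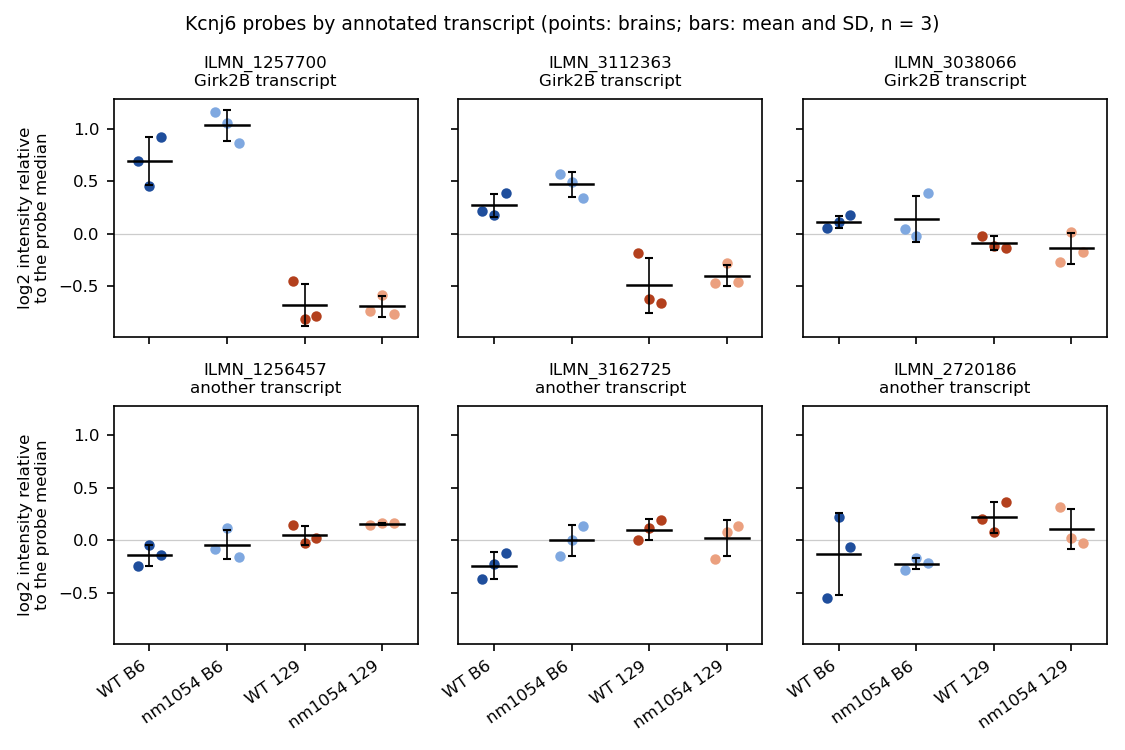
Values of the 6 Kcnj6 probes (y axis, log2 intensity relative to the probe median) in the 4 groups (x axis), with the 3 probes annotated to the Girk2B transcript in the upper row and those annotated to other transcripts in the lower row. Points are brains, bars the mean and SD (n = 3). The strains separate at ILMN_1257700 and ILMN_3112363, while no lower-row probe was called.

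Kcnj9 showed the opposite sign. At ILMN_1242415 the values were 0.68, 0.35 and 0.23 in WT 129, 0.41, 0.19 and 0.35 in nm1054 129, -0.44, -0.39 and -0.40 in WT B6 and -0.23, -0.24 and -0.19 in nm1054 B6. All 129 brains lay above 0 and all B6 brains below it. The difference was 0.83 ± 0.12 in WT (adjusted p = 1.0e-04) and 0.54 ± 0.12 in nm1054 (adjusted p = 0.0084), which is under a fold of 1.5 and not called. Its other probe, annotated to a GenBank cDNA, differed by 0.13 in WT and 0.17 in nm1054, neither called. The remaining GIRK genes had no called probe. Kcnj3 (GIRK1) differed by 0.20 and -0.03 in WT at its pair of probes and by 0.05 and 0.41 in nm1054, and Kcnj5 (GIRK4) by 0.09 and 0.31 in WT and by 0.34 and 0.44 in nm1054.

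The other inward rectifiers, Kcnj1, Kcnj2, Kcnj4, Kcnj8, Kcnj10, Kcnj11, Kcnj12, Kcnj14, Kcnj15 and Kcnj16, had no called probe. Among them Kcnj10 (Kir4.1), the channel with which astrocytes clear extracellular potassium, differed by 0.38 in WT (adjusted p = 0.0709) and by 0.41 in nm1054 (adjusted p = 0.0612). Over the class the differences ran from -1.37 (Kcnj6) to 0.83 (Kcnj9) in WT, with a median of 0.20, and from -1.72 to 0.54 at the same probes in nm1054, with a median of 0.20.

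Among the pore-forming Kv subunits, the largest class with 62 probes of 36 genes, only Kcnq5 was called. Kcnq5 encodes Kv7.5, which contributes to the M-current that muscarinic receptors shut off. It had the largest strain difference of all 243 channel probes, with 3.23-fold lower values in 129 than B6 in WT and 3.78-fold lower in nm1054, at ILMN_2558387. There the values were -0.61, -0.74 and -0.66 in WT 129, -0.58, -0.50 and -1.09 in nm1054 129, 0.50, 1.24 and 1.33 in WT B6 and 1.25, 1.22 and 1.12 in nm1054 B6. All B6 brains lay above all 129 brains, and the first WT B6 brain lay below the other 5 B6 brains.

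The Kcnq5 difference was -1.69 ± 0.18 in WT (adjusted p = 1.8e-06) and -1.92 ± 0.18 in nm1054 (adjusted p = 3.0e-07). This probe is annotated to a GenBank cDNA. Both probes annotated to the RefSeq transcript lay on the other side of 0, ILMN_1239906 at 0.37 in WT (adjusted p = 0.0483, under a fold of 1.5) and 0.30 in nm1054, and ILMN_2798606 at 0.10 and 0.21. The gene as a whole therefore had no single direction on these probes.

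The other Kv probes taken in stayed within a fold of 1.5. Outside Kcnq5 the highest difference was 0.41 at Kcnh6 in WT and 0.52 at Kcnc2 in nm1054, and the class medians were 0.14 and 0.15. Well-known members had small values in WT: Kcna1 and Kcna2, the axonal low-threshold channels, differed by 0.22 and 0.18. Kcna4 differed by 0.38, Kcnc1, a channel of fast-spiking neurons, by 0.16 and 0.11, and Kcnq3 by -0.02. The A-type channels Kcnd2 (-0.02 and 0.06) and Kcnd3 (0.22 and 0.27) were likewise not called, nor was Kcnh2 (ERG), whose 3 probes ran from -0.23 to 0.26. Kcnh1 probe ILMN_2668260 passed the adjusted p in WT at -0.52 (adjusted p = 0.0201) but not the fold. The further genes of this class, none of them called at the probes taken in, were Kcna3, Kcna5, Kcna6, Kcna7, Kcna10, Kcnb2, Kcnc4, Kcnd1, Kcnf1, the Kcng, Kcns and Kcnv modifiers, Kcnh3, Kcnh4, Kcnh5, Kcnh7, Kcnh8 and Kcnq1. For Kcnh7 the study's list of genes differing between the WT strains holds another probe, which the symbol rule did not take in.

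None of the 22 probes of 12 Kv auxiliary genes was called. These are the cytoplasmic beta subunits (Kcnab1 to Kcnab3), the single-pass Kcne subunits (Kcne1 to Kcne4, with Kcne1l, an older name of Kcne5) and the calcium-binding KChIP proteins (Kcnip1 to Kcnip4), which bring Kv4 channels to the surface. The differences ran from -0.43 (Kcnip3) to 0.38 (Kcne3) in WT and from -0.32 (Kcnab1) to 0.37 (Kcnip4) in nm1054. Kcnip3, also known as the transcriptional repressor DREAM, passed the adjusted p in WT (adjusted p = 0.0245) without reaching the fold.

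The class of potassium channels opened by intracellular calcium or sodium, with their relatives and beta subunits, held 18 probes of 11 genes. Among them Kcnn1 was called in both genotypes. Kcnn1 encodes SK1, a small-conductance channel of the afterhyperpolarisation. It was higher in 129 by 1.79-fold in WT and 1.85-fold in nm1054 at its only probe, ILMN_2664556. The values were 0.32, 0.51 and 0.49 in WT 129, 0.38, 0.44 and 0.12 in nm1054 129, -0.55, -0.52 and -0.12 in WT B6 and -0.61, -0.75 and -0.38 in nm1054 B6. All 129 brains lay above all B6 brains, with differences of 0.84 ± 0.14 in WT (adjusted p = 4.5e-04) and 0.89 ± 0.14 in nm1054 (adjusted p = 2.2e-04).

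The other SK genes had no called probe, and Kcnn2 (SK2) differed by 0.21 and 0.10 in WT. The class ran from -0.52 (Kcnu1) to 0.84 (Kcnn1) in WT and from -0.44 (Kcnma1) to 0.89 (Kcnn1) in nm1054. Kcnma1, the BK channel, had 3 probes at 0.53, 0.35 and 0.40 in WT and at 0.00, -0.44 and -0.12 in nm1054, none called. The rest of the class, Kcnn3, Kcnn4, the BK beta subunits Kcnmb1, Kcnmb2 and Kcnmb4, and the sodium-activated Kcnt1 and Kcnt2, had no called probe either.

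The 13 two-pore genes, with 25 probes, had no call. These leak channels set the resting potential. Their differences ran from -0.10 (Kcnk3) to 0.48 (Kcnk10) in WT and from -0.31 (Kcnk6) to 0.39 (Kcnk9) in nm1054, and the class medians were 0.12 and 0.11. Kcnk1 (-0.05 and 0.03 in WT) and Kcnk2 (0.14 and 0.19) differed little. The last 3 potassium probes, of the regulator gene Kcnrg and the antisense transcript Kcnmb4os1, ran from -0.33 (Kcnrg) to 0.28 (Kcnmb4os1) in WT and from -0.34 to 0.35 in nm1054 and were not called.

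Sodium channel genes differed little between the strains apart from 1 probe. Of 16 probes of 8 pore-forming genes only Scn9a ILMN_1217213 was called, in WT. Scn9a encodes Nav1.7, best known from nociceptors and also present in hypothalamic neurons. The values were 0.44, 0.13 and 0.20 in WT 129 and -0.68, -0.78 and -0.49 in WT B6, which did not overlap. In nm1054 they were -0.03, 0.07 and 0.12 in 129 and 0.03, -0.04 and -0.52 in B6, where the strains overlapped. The strain difference was 0.90 ± 0.14 in WT (1.87-fold, adjusted p = 2.5e-04) and 0.23 ± 0.14 in nm1054 (adjusted p = 0.345). The interaction, which tests the difference between these differences, was -0.67 with an unadjusted p of 0.00337 and an adjusted p of 1.00, so the strain effects in WT and nm1054 were not shown to differ. The other Scn9a probe differed by 0.35 in WT (adjusted p = 0.0843) and 0.13 in nm1054.

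The main brain sodium channels were not called. Scn2a, which dominates in developing axons, differed by 0.07, 0.22 and 0.07 at its 3 probes in WT, Scn8a by -0.10 and 0.07 and Scn1a by 0.07. Scn3a, the embryonic and neonatal form, ran from -0.06 to 0.47 over 4 probes, and the highest of them passed the adjusted p (0.0484) without the fold. The class ran from -0.14 (Scn11a) to 0.90 (Scn9a) in WT, with a median of 0.12, and from -0.29 (Scn1a) to 0.23 (Scn9a) in nm1054, with a median of -0.01. Scn7a and Scn10a were not called either. The beta subunits, adhesion-like partners of the pore, had 9 probes of Scn2b, Scn3b and Scn4b between -0.12 and 0.25 (both Scn4b) in WT and between -0.15 (Scn3b) and 0.24 (Scn2b) in nm1054, with none called.

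Among calcium channel pores, 28 probes of 10 genes, Cacna1a was called in both genotypes. Cacna1a encodes Cav2.1, the P/Q-type channel of presynaptic release and of Purkinje cells. At ILMN_1212985, annotated to a GenBank cDNA, the values were 0.01, -0.32 and -0.38 in WT 129, -0.27, -0.28 and -0.52 in nm1054 129, -0.01, 0.79 and 0.66 in WT B6 and 0.60, 0.70 and 0.30 in nm1054 B6. In nm1054 the strains did not overlap, whereas in WT the first B6 brain lay just below the highest 129 brain. The difference was -0.71 ± 0.17 in WT (1.63-fold lower in 129, adjusted p = 0.0163) and -0.89 ± 0.17 in nm1054 (1.85-fold lower, adjusted p = 0.00247). The WT call was lost when only the 6 WT arrays were fitted and when WT 129 replicate 2 (-0.66), WT 129 replicate 3 (-0.63) or WT B6 replicate 2 (-0.55) was left out. The RefSeq probe of the gene, ILMN_2485920, lay on the other side of 0, at 0.37 in WT (adjusted p = 0.137) and 0.38 in nm1054 (adjusted p = 0.156).

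No other calcium channel pore was called. The N-type gene Cacna1b had 4 probes between -0.14 and 0.19 in WT, and the L-type gene Cacna1c had 6 between -0.03 and 0.40, the highest value of the class at ILMN_2677449. Cacna1d, Cacna1e, Cacna1f, the T-type genes Cacna1g, Cacna1h and Cacna1i, and the muscle gene Cacna1s were likewise not called. The class median was 0.16 in WT and 0.09 in nm1054, and the lowest and highest values in nm1054 were those of the pair of Cacna1a probes, -0.89 and 0.38.

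The beta subunits of calcium channels bring the pore to the membrane. Of their 10 probes, from Cacnb1, Cacnb2 and Cacnb4, only Cacnb4 ILMN_3047749 was called, in WT. Cacnb4 is the gene mutated in the epileptic lethargic mouse. Its values were 0.65, 0.18 and 0.12 in WT 129, 0.18, 0.27 and 0.52 in nm1054 129, -0.40, -0.52 and -0.45 in WT B6 and -0.17, -0.12 and -0.31 in nm1054 B6. The strains did not overlap in either genotype. The difference was 0.77 ± 0.14 in WT (1.71-fold, adjusted p = 0.00103) and 0.52 ± 0.14 in nm1054 (adjusted p = 0.0271, under a fold of 1.5). Its other 3 probes differed by 0.03, 0.05 and 0.35 in WT and were not called.

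Near the threshold were Cacnb2 ILMN_2565436 at 0.58 in WT (adjusted p = 0.0289) and Cacnb1 ILMN_2674213 at 0.55 in nm1054 (adjusted p = 0.00815), the highest of the class there. The lowest were -0.18 (Cacnb2) in WT and -0.31 (Cacnb1) in nm1054. The alpha2delta subunits, of which some are targets of gabapentin, had 5 probes of Cacna2d1, Cacna2d3 and Cacna2d4, and none was called. They ran from -0.15 to 0.41 in WT, both at Cacna2d1, and from -0.21 (Cacna2d1) to 0.37 (Cacna2d3) in nm1054. The gamma genes, of which several encode the TARP proteins that carry AMPA receptors to the synapse, had 11 probes of 8 genes, Cacng1 to Cacng8, and none called. They ran from -0.39 (Cacng1) to 0.53 (Cacng4) in WT and from -0.41 (Cacng2) to 0.30 (Cacng5) in nm1054.

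The Hcn genes encode the pacemaker channels of the h-current, and all 5 of their probes, of Hcn2, Hcn3 and Hcn4, were above 0 in both strain comparisons. They ran from 0.24 (Hcn2) to 0.46 (Hcn3) in WT, with a median of 0.38 against 0.15 for all probes, and from 0.04 (Hcn4) to 0.59 (Hcn3) in nm1054, with a median of 0.21 against 0.12. Only Hcn3 ILMN_2808472 was called, in nm1054. Its values were 0.12, 0.22 and 0.09 in WT 129, 0.12, 0.10 and 0.13 in nm1054 129, -0.09, -0.40 and -0.41 in WT B6 and -0.46, -0.64 and -0.33 in nm1054 B6. Every 129 brain lay above every B6 brain.

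The Hcn3 difference at this probe was 0.59 ± 0.12 in nm1054 (1.51-fold, adjusted p = 0.00326) and 0.45 ± 0.12 in WT (adjusted p = 0.0262, under the fold). The call sits at the threshold: the difference was 0.50 after median centring of the arrays, 0.54 after quantile normalization and 0.51 without nm1054 B6 replicate 2, none of them called. The other Hcn3 probes differed by 0.46 (adjusted p = 0.0287) and 0.37 in WT and by 0.18 and 0.21 in nm1054.

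In genes with a call, probes of the same gene did not always move as one. Of the 6 genes with several probes and a call in WT, and of the 4 such genes in nm1054, none had all of its probes called. Kcnq5 and Cacna1a each had a called probe below 0 and RefSeq probes above 0. Over all 69 channel genes with several probes the median gap between the highest and the lowest probe was 0.18 in WT and 0.23 in nm1054. The SE of single channel probes was 0.10 to 0.25 in both comparisons, so most such gaps were of the size of the SE. The genes with a call were chosen by 1 differing probe, so a wider gap in them is fixed by that choice.

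**Figure D4:**
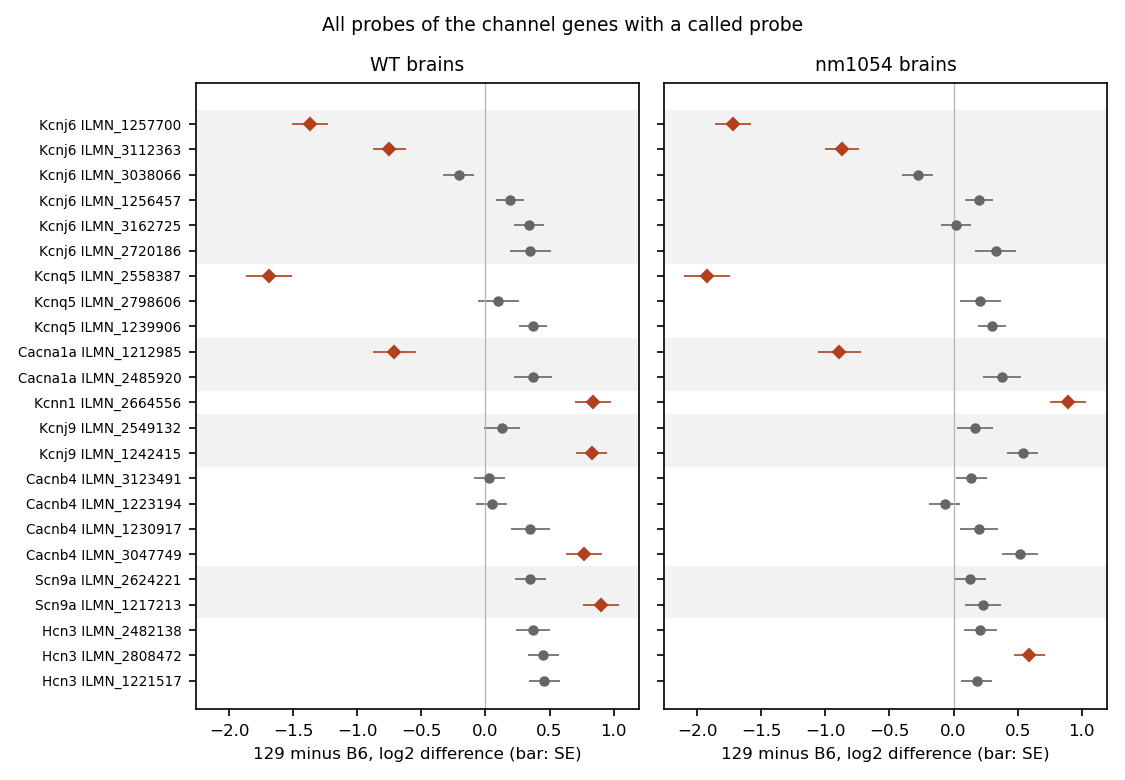
The 129 minus B6 difference (x axis, log2, bars SE) of all probes of the 8 channel genes with a called probe (y axis), in WT brains at left and nm1054 brains at right. Diamonds are called probes. Apart from Kcnn1, with 1 probe, each gene also has probes that were not called, and the probes of Kcnj6, Kcnq5 and Cacna1a lie on both sides of 0 in each panel, as do those of Cacnb4 in nm1054 (-0.07 to 0.52).

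The nm1054 genotype changed no channel probe past the thresholds on either background. Called were 0 of 243 on B6, against 0.0177% of all probes, and 0 on 129, against 0.0199%. An unadjusted limma p under 0.05 was reached by 15 channel probes on B6 (6.17%, against 6.12% of all probes), 10 higher and 5 lower in nm1054 (over all probes, 1215 higher and 1554 lower). On 129 it was reached by 7 (2.88%, against 2.65%), all lower, as were 991 of the 1198 over all probes. The methods' t-test also called 0 on each background, against 0.00221% of all probes on B6 and 0.00883% on 129. The groups did not overlap for 18 channel probes on B6 (7.41%, against 9.22%) and for 22 on 129 (9.05%, against 11.1%).

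The median nm1054 minus WT difference of the channel probes was -0.01 on B6 and -0.05 on 129, and the SE of single probes was 0.10 to 0.25. The lowest unadjusted p on B6 belonged to Kcnk4 (TRAAK, a mechanically gated leak channel), at -0.42 with an unadjusted p of 0.00242 and an adjusted p of 0.580. Its values were 0.19, 0.00 and 0.14 in WT B6 and -0.49, -0.10 and -0.34 in nm1054 B6, which did not overlap. The only channel probe over a fold of 1.5 on B6 was Cacng7 ILMN_2599327, at 0.74 with an adjusted p of 0.751. Its values were 0.22, -0.69 and -0.77 in WT B6 and 0.98, 0.02 and -0.02 in nm1054 B6, so that 1 brain of each group stood above the other 2. Without WT B6 replicate 1 the difference was 1.06 and called (adjusted p = 0.0398), and with array weights it was 0.92 and called (adjusted p = 0.0382). Calls over the whole array also rose in these settings, to 0.205% and 0.294% of all probes from 0.0177% in the main fit.

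On 129 the channel probes lay within a fold of 1.5 throughout, from -0.45 (Cacna2d1 ILMN_2752030) to 0.43 (Scn3b ILMN_1227604). Of the probes called between the strains, Kcnj6 ILMN_1257700 differed with genotype on 129 by -0.01, Kcnq5 ILMN_2558387 by -0.05 and Kcnn1 by -0.13. On B6 the same probes differed by 0.34, 0.18 and -0.18, not called. Scn9a ILMN_1217213 differed by 0.47 on B6 (unadjusted p = 0.00374, adjusted p = 0.648) and -0.20 on 129. Cacna1a ILMN_1212985 differed by 0.06 and -0.13, Kcnj9 ILMN_1242415 by 0.19 and -0.10, Cacnb4 ILMN_3047749 by 0.26 and 0.01, Hcn3 ILMN_2808472 by -0.17 and -0.03 and Kcnj6 ILMN_3112363 by 0.20 and 0.08.

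**Figure D5:**
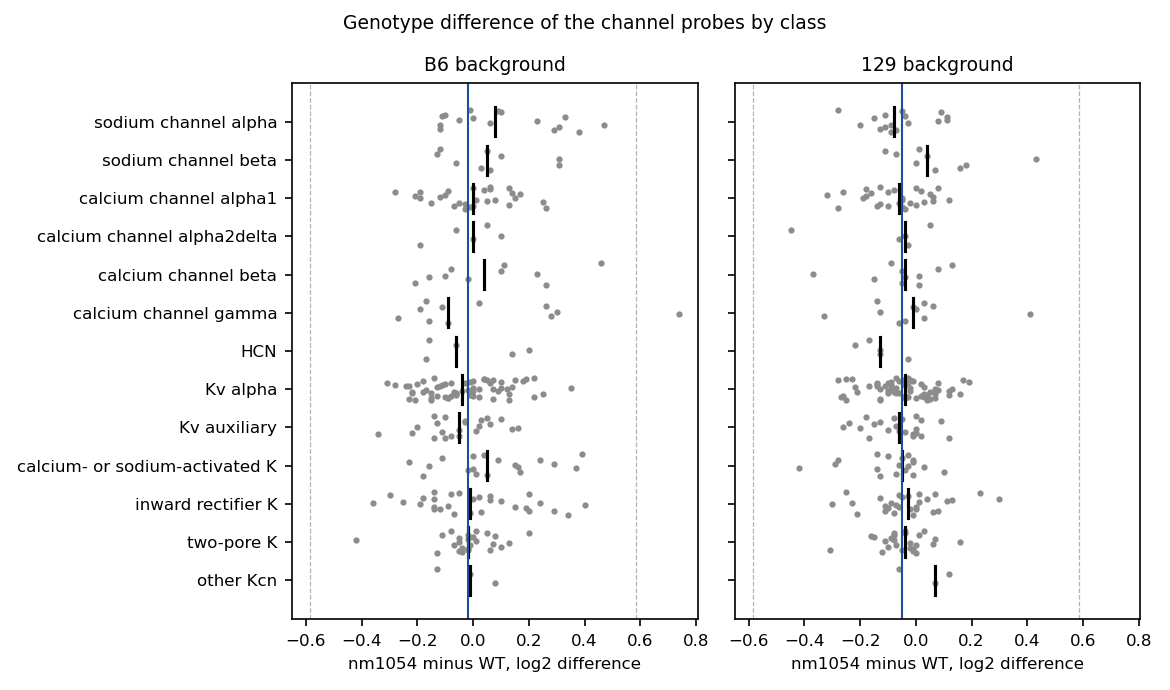
The nm1054 minus WT difference (x axis, log2) of each of the 243 channel probes by class (y axis), on the B6 background at left and the 129 background at right. Black bars are class medians, the blue line the median of all probes and dashed lines a fold of 1.5. No probe was called, and only Cacng7 on B6, at 0.74, lies outside the dashed lines.

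The interaction of strain and genotype was called for 0 channel probes, against 0.00221% of all probes. An unadjusted p under 0.05 was reached by 14 channel probes (5.76%, against 4.09%), all 14 below 0 (over all probes, 1379 of 1851), that is with 129 less high against B6 in nm1054 than in WT. Kcnma1 had the lowest value, -0.79 at ILMN_1256814, and its 3 probes had unadjusted p of 0.00514, 0.00931 and 0.0337 (adjusted p of 1.00 for each). At ILMN_1244166 the values were 0.27, -0.07 and 0.28 in WT 129, -0.18, -0.53 and -0.38 in WT B6, 0.04, -0.04 and 0.07 in nm1054 129 and 0.10, 0.13 and -0.15 in nm1054 B6. The WT strains did not overlap at this probe and the nm1054 strains did. The highest interaction was 0.44 at Kcnj3.

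Partners of the channels were taken from a list of anchoring, clustering and regulatory genes and of related leak channels, 35 genes with 78 probes. In WT 4 of their probes were called higher in 129 and 1 lower, and in nm1054 2 higher and 1 lower, where 3.33% and 3.27% of all probes were called. Ank2, ankyrin-B, was lower in 129 at ILMN_3158444 by -1.26 in WT (adjusted p = 1.0e-05) and -1.25 in nm1054 (adjusted p = 1.2e-05), while its other probes, ILMN_2718030 (0.04 and 0.18) and ILMN_3079138 (0.33 and 0.05), were not called. Unc80, a subunit of the sodium leak channel complex, was higher at ILMN_1227376 by 1.34 (adjusted p = 3.4e-07) and 0.93 (adjusted p = 4.9e-05), and its other probe, at 0.44 and 0.27, was not called. Called in WT were also a pair of the 6 probes of Adam22, the Lgi1 receptor that lies with Kv1 channels, at 0.89 and 0.86, and 1 of the 4 probes of Rimbp2, which ties calcium channels to release sites, at 0.62.

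Cntn2, an axonal adhesion protein that clusters Kv1 channels, was called between genotypes at 1 of its 4 probes, by 1.44 on 129 (adjusted p = 2.1e-04) at ILMN_2672943. It was also called between the strains in nm1054, at 1.06 (adjusted p = 1.6e-04). The other 3 Cntn2 probes differed between genotypes on 129 by 0.72, -0.10 and -0.24, none called. On B6 the genotype difference at ILMN_2672943 was 0.02, and the interaction of 1.42 had an adjusted p of 0.0815. No other partner probe was called for genotype on either background, and 0 for the interaction. Of all probes, 0.0199% were called for genotype on 129, and whether the deletion itself accounts for the Cntn2 difference was not tested.

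The array medians over all probes ran from -0.17 (WT B6 replicate 1) to 0.11 (WT 129 replicate 1), and those over the channel probes from -0.13 to 0.12 on the same arrays. The within-group SD of a channel probe had a median of 0.170, against 0.161 for all probes. Dbi, a gene inside the deletion, fell by 7.28 on B6 and fell by 7.15 on 129 in nm1054 at ILMN_1215469, in the direction of the labels. Over all probes, the highest nm1054 minus WT difference on B6 was at Xist (1.96). The lowest interaction was also at Xist (-4.05) and the highest at Eif2s3y (3.13). Xist is expressed in female cells and Eif2s3y lies on the Y chromosome, which points to an uneven share of the sexes between groups. The part of sex in the channel differences was not tested. Of 3 red blood cell probes, that of Hbb-b2 was higher in 129 by 3.26 in WT and 3.19 in nm1054, that of Hba-a1 (0.32 and 0.34) was not called, and that of Alas2 was called in nm1054 only (0.23 and 0.71). The mean level of these 3 was 0.50 to 0.81 in WT 129 and -0.86 to -0.21 in WT B6, and 0.52 to 0.92 in nm1054 129 and -0.83 to -0.54 in nm1054 B6, a gap carried mostly by the Hbb-b2 probe. Their part in the strain differences of the channels was not tested.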

How the data were processed

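Total RNA of 12 whole brains was hybridised to single-colour arrays. Per the paper's methods, the authors computed intensities with GenomeStudio and normalized them in GeneSpring GX; the kind of normalization and the versions are not given in the sources used here. The deposited values are log2 intensities relative to each probe's median over the 12 arrays, so signal level, detection and depth are unknown, and precision is limited by how many arrays there are. Labels name replicates, and the methods name brains of separate mice.

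Probes were named from the platform annotation, and 197 of the 243 channel probes matched the RefSeq gene table by gene identifier. Group means were fitted to all 45281 probes and all 12 arrays with limma 3.58.1 in R 4.3.3 (lmFit, eBayes, 8 residual and 10.8 prior degrees of freedom), with Benjamini-Hochberg adjustment over all probes. The interaction was called on adjusted p alone. The code was tested on simulated data. Alternatives were the methods' t-test, only the arrays compared, a replicate block, quantile normalization, median centring, array weights, leaving out the less variable probes, no fold or a fold over 2, and leaving out each array.

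Named were every probe of a gene with a call, a set of well-known brain channels, and the extremes of each class in the strain comparisons; genes named otherwise (Kcnj5 and the genotype and interaction examples) were chosen after their values were seen. The members, classes and lists were chosen with earlier results of these data known. Detection calls were not used here, and some channel genes of that set are not reported here.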

Additional observations from a re-analysis of the deposited data

How the results depend on the processing

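The 8 channel probes called between the strains in WT became 0 under the methods' t-test, 22 with no fold threshold and 2 with a fold over 2, where 1.2%, 7.79% and 1.33% of all probes were called. The 6 in nm1054 became 3, 11 and 2, against 1.58%, 6.43% and 1.38%. Leaving out single arrays gave 8 to 12 calls in WT, against 3.11% to 4.49% of all probes. The 12 came without WT B6 replicate 1, against 3.6%. In nm1054 there were 5 to 8, against 3.02% to 3.68%. For genotype on B6 the count of 0 became 1 (Cacng7) with array weights, against 0.294% of all probes. Leaving out single arrays gave 0 to 1 there, with 1 without WT B6 replicate 1, against 0.205%. The count was 0 in every setting run for genotype on 129 and for the interaction.

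Centring each array on its median gave 10 calls in WT, 4 higher and 6 lower in 129, adding Kcnh1 and Kcnu1 (both -0.65). In nm1054 there were 5, 1 higher and 4 lower. Over all probes 3.23% and 3.37% were called in this setting. None of the 14 named strain calls reversed in any setting, and the t-test lost 11 of them.

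The labels do not say what the replicate numbers mark. Over 18 pairs of same-numbered arrays the correlation of deviations ran from -0.32 to 0.19, with 2 over 0.1. With groups of 3, this cannot tell whether same-numbered arrays shared a litter or batch. With the replicate block the counts were 8 in WT and 6 in nm1054, against 3.32% and 3.23% of all probes, and all 14 calls were kept. No array duplicated another (highest correlation 0.574). With 3 brains a group and no signal level, small or low channels cannot be judged.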
